A study of Mus musculus with 4 samples.

Results

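Semaphorins, their plexin receptors and the neuropilin co-receptors were examined in chemically transformed C3H10T1/2 cells with and without diethyl maleate (DEM). The genes were taken by symbol: every non-control probe named Sema3, Sema4, Sema5, Sema6, Sema7 or Plxn, with Nrp1 and Nrp2, without opposite-strand names. This gave 59 probes for 31 genes (20 semaphorins, 9 plexins and 2 neuropilins), of which 25 were well above background on at least 2 of the 4 arrays, among 24654 genes and transcripts tested in all. The family had been selected with the measured DEM values of these same arrays known, so the differences of its own genes are described here and carry no p-value. C3H10T1/2 is a mouse embryo fibroblast line. All 4 samples were of cells transformed in culture with the carcinogen MCA (2.5 µg/ml for 2 days) and then with TPA, a phorbol ester (100 ng/ml over 2 weeks). The cells of 2 arrays were exposed to 0.25 mM DEM, an electrophile that binds glutathione. The other 2 arrays held transformed cells with no DEM. No untransformed cells were compared here, and the labels leave unsaid whether the samples within a group were separate cultures. The errors and p-values therefore rest on the spread between 2 samples per group, drawn by the fit toward that of other genes. That spread may be technical only.

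Semaphorins are secreted or membrane-bound guidance cues that carry a sema domain. Most bind plexins, single-pass receptors whose cytoplasmic part acts on small GTPases, and thereby steer the cytoskeleton and adhesion of axons, endothelial cells, immune cells and fibroblasts. The secreted class 3 semaphorins mostly need a neuropilin as the binding subunit of the receptor, whereas the membrane-bound classes generally bind plexins directly, and neuropilins also bind vascular endothelial growth factors.

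Of the 25 genes tested, 13 passed the whole-table fit as lower in DEM-exposed cells (limma, adjusted p under 0.05), 1, Sema7a, as higher and 11 did not pass. Of the 21 genes well above background on all 4 arrays, 10 passed as lower in a fit to such probes alone. Over all genes tested 11.8% passed as lower and 15.5% as higher, and over the 12679 protein-coding genes tested 16.7% passed in each direction; because the family was selected on this comparison, nothing is read from its share. The median log2 difference of the 25 genes was -0.96, or -0.54 when, of the 4 genes that were dim under DEM, 3 are set at their bounds and Sema4g, which has no bound, at 0, against 0.16 for all genes tested and 0.10 for protein-coding genes. Here a difference is the mean DEM level minus the mean untreated level, and a level is log2 signal relative to the 75th percentile of its array. Both DEM arrays lay below both untreated arrays for 18 of the 25 genes and above them for 3, while the arrays of the groups overlapped for 4. The same held for 26% of all genes tested (below) and 42.4% (above). The 18 include the 4 genes that were dim under DEM. Those 4 entered the test only through the untreated arrays, where they were higher. Without the array untreated 1 only 4 family genes passed as lower, and without untreated 2 only 3 did, in fits whose spread rests on the DEM pair alone. Scaling to spike-in RNA left 3 lower and 0 higher by limma, with 1 higher at an unadjusted p under 0.05.

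**Figure D1:**
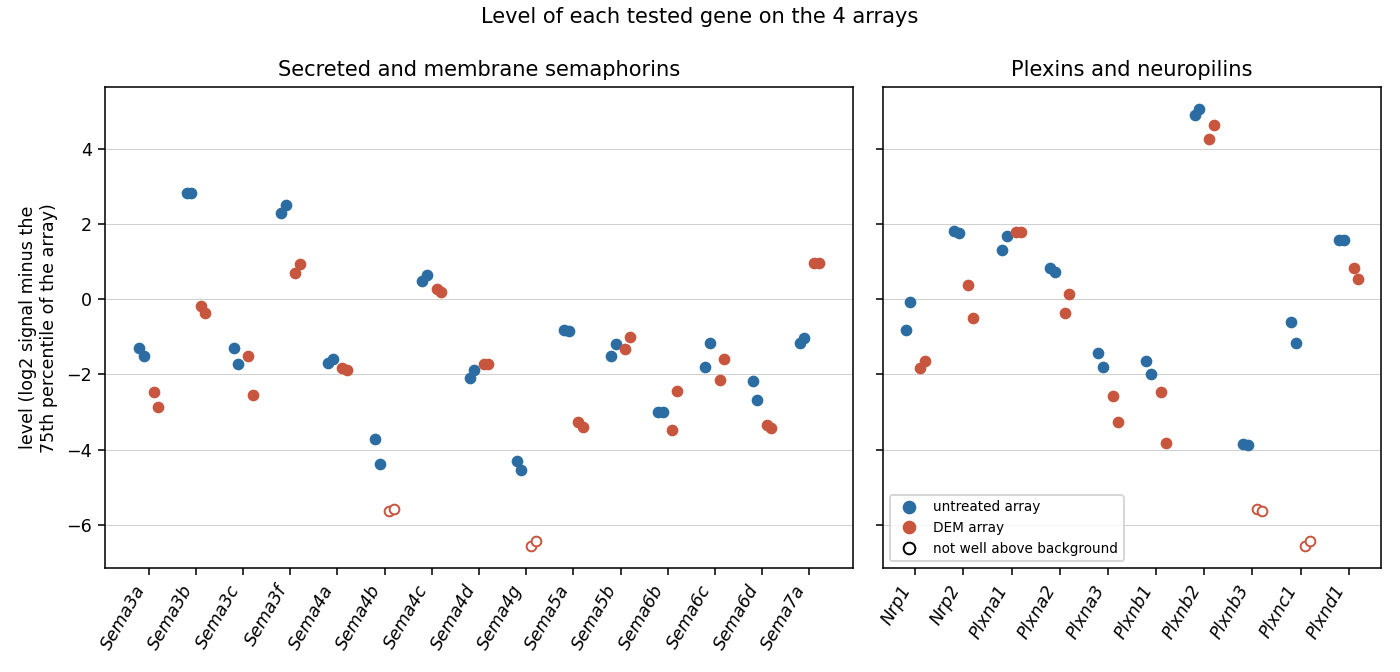
Level of each tested gene on every array (log2 signal relative to the array's 75th percentile), with untreated arrays in blue, DEM arrays in red and open circles where the probe was not well above background. Sema7a is the gene whose DEM arrays sit furthest above its untreated arrays (0.95 and 0.95 against -1.16 and -1.04), and Plxnc1 the gene with the widest gap in the other direction; levels of different genes come from different probes and cannot be ranked.

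The secreted class 3 semaphorins held the largest decrease among genes that were well above background on all arrays. Sema3b, a ligand of neuropilin and plexin A complexes known as a growth suppressor in several tumours, had untreated levels of 2.83 and 2.83 and DEM levels of -0.18 and -0.37. The groups were far apart and each pair was tight: the log2 difference was -3.10 ± 0.18 (SE of the fit, n = 2 arrays per group), which is 8.60-fold lower, and it passed under every setting tried. Sema3f, which binds neuropilin 2, had levels of 2.28 and 2.49 without DEM and 0.71 and 0.95 with it. Both DEM arrays lay below both untreated arrays, by -1.56 ± 0.19 on average, and a separate Sema3f probe gave -1.65; the call was lost without untreated 2 and with spike-in scaling. Sema3a, the founding collapsin that binds neuropilin 1, stood at -1.29 and -1.52 untreated and at -2.46 and -2.87 under DEM. This was a difference of -1.26 ± 0.26, or -1.56 with its other probe, and it passed in the main comparison but not without either untreated array or with spike-in scaling. Sema3c, which can promote rather than repel migration, differed by -0.52 ± 0.39, and its arrays overlapped because the DEM arrays were 1.03 apart. Sema3d, Sema3e and Sema3g were not well above background on any array and have no measured difference.

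In the RefSeq gene table, Sema3b and Sema3f are near neighbours on chromosome 9, separated by 3 protein-coding genes. Of these, Gnai2, a G protein alpha subunit, differed by -0.63 ± 0.20 (limma adjusted p = 0.0622) and Gnat1, transducin, by -1.48 ± 0.67 (adjusted p = 0.15), neither of which passed. Slc38a3, a glutamine transporter, was not tested because too few arrays were above background. Sema3a, Sema3c, Sema3d and Sema3e all lie on chromosome 5. Between Sema3d and Sema3c, the only tested genes outside the family were Hgf and Cacna2d1. Hgf had a fitted difference of -4.33 ± 0.33 (limma adjusted p = 0.00121) and passed as lower. Cacna2d1 differed by 0.39 ± 0.20 and did not pass.

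Membrane-bound semaphorins of classes 4, 5 and 6 were less uniform. Sema5a, a transmembrane semaphorin with thrombospondin repeats that binds Plxna1 and Plxna3, had levels of -0.81 and -0.85 untreated and -3.27 and -3.40 under DEM. Its pairs differed internally by 0.034 and 0.13, far less than the groups did, and the difference of -2.50 ± 0.23 (5.67-fold lower) passed under every setting. The size varied more: Sema5a values ran from -2.66 to -1.48, the smallest decrease being with normexp background correction. Its relative Sema5b differed by 0.20 ± 0.24 with overlapping arrays, and did not pass.

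In class 4, 5 of 6 genes were tested and 2 passed as lower, but both of those were dim. Sema4b had levels of -3.71 and -4.38 untreated and was not well above background on either DEM array (-5.64 and -5.58). The bound comes to 1.13-fold lower. However, untreated 2 lay below the lowest scaled levels that counted as well above background on the DEM arrays (-4.28 and -4.16). No minimum decrease is therefore read for Sema4b. Its fitted difference of -1.56 ± 0.40 turned to 0.04 with normexp background correction. Sema4g, at -4.29 and -4.53 untreated, was likewise not well above background under DEM (-6.56 and -6.44). No fold is given for it, because its mean scaled level untreated (-4.41) was below the lowest scaled levels that counted as well above background on the DEM arrays (-4.28 and -4.16). The other 3 tested class 4 genes did not pass. Sema4a, an immune and retinal semaphorin, differed by -0.22 ± 0.22, Sema4c, a Plxnb2 ligand, by -0.34 ± 0.19, and Sema4d, the Plxnb1 ligand CD100, by 0.25 ± 0.23. Sema4d had both DEM levels above both untreated levels, yet its processed signal was lower on the DEM arrays (135 and 124) than on the untreated arrays (165 and 202), because the 75th percentile itself was lower there. Sema4f was not well above background on any array.

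Class 6 semaphorins, which signal through A-type plexins, contained no gene that passed in the main comparison. Sema6d, with roles in cardiac development, differed by -0.96 ± 0.29 and had both DEM arrays (-3.34 and -3.43) below both untreated arrays (-2.18 and -2.68). Sema6d was a near miss: it passed as lower with the percentile over detected probes and with the filter on all 4 arrays. It also passed without the variance trend and with a replicate block. Sema6c differed by -0.38 ± 0.32, with overlapping arrays and a dimmer probe that gave 0.36. Sema6b differed by 0.03 ± 0.39, a value that became -0.12 with the percentile over detected probes, -0.13 with spike-in scaling and -0.48 without DEM 2. Its DEM arrays were 1.03 apart, so no direction can be given. Sema6a was not well above background on any array.

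Sema7a was the family's only gene to pass as higher. It encodes a GPI-anchored semaphorin, also known as CD108, that binds Plxnc1 and beta-1 integrins and is known for roles in immune cells and fibrosis. Its untreated levels were -1.16 and -1.04 and its DEM levels 0.95 and 0.95, so the pairs did not overlap and the DEM pair was nearly identical. The processed signals were 314 and 364 without DEM and 868 and 797 with it, so this gene was brighter before scaling as well. The difference was 2.05 ± 0.19 (SE), or 4.13-fold higher, from a single probe. It passed as higher without each of the 4 arrays in turn and failed under 1 setting, spike-in scaling, where the value was 1.89.

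**Figure D2:**
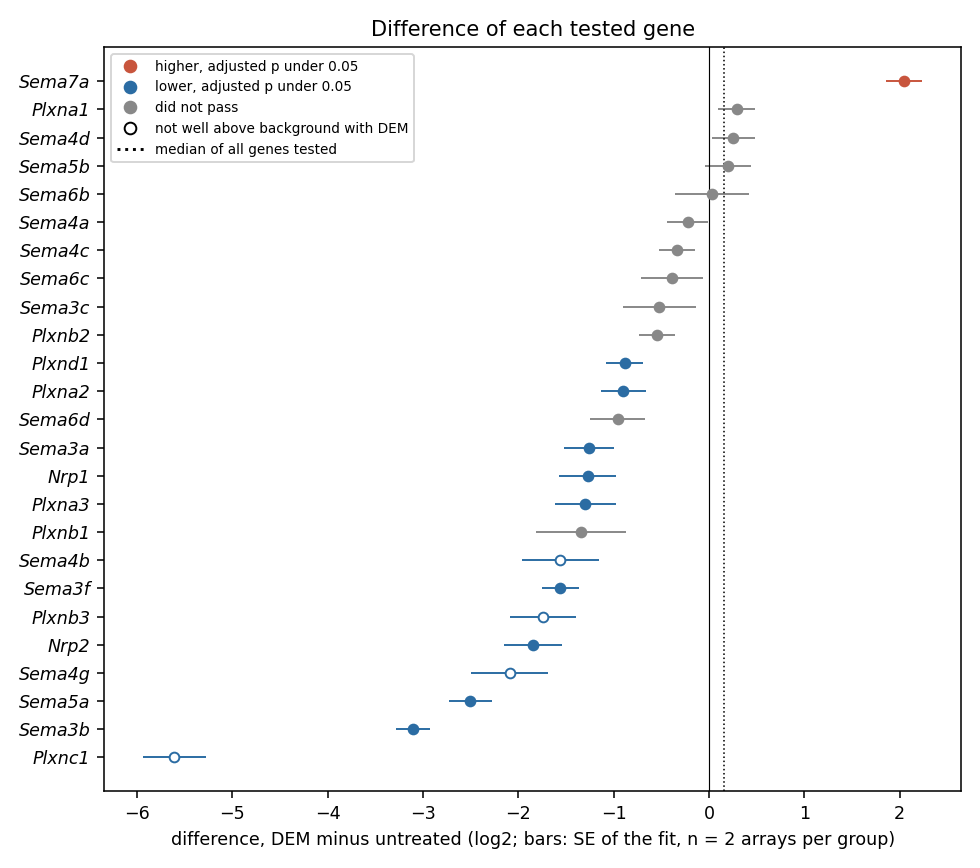
Difference of each tested gene, DEM minus untreated on the log2 scale, as points with the SE of the fit (n = 2 arrays per group), coloured by whether the gene passed, with open points for genes not well above background under DEM. Of 25 genes, 20 lie below 0, and the values run from -5.61 (Plxnc1) to 2.05 (Sema7a); the dotted line is the median of all genes tested, 0.16.

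The receptor of Sema7a moved in the opposite direction. Plxnc1, the only C-type plexin and a receptor for Sema7a and viral semaphorins, had levels of -0.61 and -1.16 untreated and -6.57 and -6.42 under DEM, which was not well above background on either DEM array. In the main processing Plxnc1 was therefore at least 10.1-fold lower, and the fitted difference was -5.61 ± 0.33. A second Plxnc1 probe, at -4.66 and -4.73 untreated and also not well above background under DEM, gave -1.80, a value that starts from close to the floor. The Plxnc1 call held under every setting that gave a value, from -5.88 to -2.17. The value of -2.17, with normexp background correction, is a smaller decrease than the 10.1-fold bound. That bound therefore applies to the main processing only. Among the integrin partners of Sema7a, Itgb1, integrin beta 1, differed by 0.32 ± 0.16 and did not pass (limma adjusted p = 0.179), and its alpha subunit Itga1 is given among the membrane partners.

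Neuropilins were both lower. Nrp1, which binds Sema3a and VEGF-A, had levels of -0.83 and -0.08 untreated and -1.82 and -1.64 under DEM. The untreated arrays were 0.75 apart, the widest untreated gap in the family, and the difference was -1.27 ± 0.30, matched by -1.26 from its other probe. Nrp2, which binds Sema3f and VEGF-C, had levels of 1.82 and 1.76 untreated and 0.38 and -0.49 under DEM. Here the DEM arrays were the ones apart, by 0.87, and the difference was -1.85 ± 0.31, or 3.60-fold lower. Neither neuropilin passed without untreated 1, without untreated 2 or with spike-in scaling, though the difference stayed negative in each of these.

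Of the 3 tested A-type plexins, the signalling partners of neuropilins, 2 passed as lower. Plxna2 had levels of 0.84 and 0.72 untreated and -0.38 and 0.14 under DEM, a difference of -0.90 ± 0.24, and its 2 further probes gave -1.98 and -1.96. Plxna3 had levels of -1.43 and -1.81 untreated and -2.58 and -3.26 under DEM, a difference of -1.30 ± 0.32, while a dim second probe gave -0.11. Both passed in the main comparison and neither did without untreated 1, without untreated 2 or with spike-in scaling. Plxna2 also did not pass without DEM 1 (-0.64) or without the variance trend, nor did Plxna3 with its probes averaged (-0.70). Plxna1 had, on its brightest probe, levels of 1.32 and 1.67 untreated and 1.78 and 1.78 under DEM, a difference of 0.29 ± 0.20 that did not pass. A second Plxna1 probe gave -0.44, and the mean of both was -0.08, so the direction depends on the probe. Plxna4 was well above background on 1 array and was not tested.

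B-type plexins, receptors for class 4 semaphorins that also associate with the receptor kinases Met and Erbb2, had negative differences in all 3 cases, of which 1 passed. Plxnb1 had levels of -1.63 and -1.99 untreated and -2.47 and -3.84 under DEM. The groups did not overlap, yet the DEM arrays were 1.36 apart, the widest gap in the family. The difference of -1.34 ± 0.47 did not pass in the main comparison, but it did with a replicate block. Plxnb2, whose ligands include Sema4c, had levels of 4.90 and 5.05 untreated and 4.25 and 4.62 under DEM, a difference of -0.54 ± 0.19 that did not pass in the main comparison. Plxnb2 did pass as lower with normexp, quantile normalization, the percentile over detected probes and a replicate block. Plxnb3, a receptor for Sema5a, stood at -3.86 and -3.88 untreated and was not well above background under DEM. In the main processing it was at least 1.28-fold lower. Its fitted value of -1.74 ± 0.34 passed but became 0.01 with normexp background correction, where that bound does not hold. Plxnd1, the receptor that Sema3e can bind without a neuropilin and that guides vessels, had levels of 1.56 and 1.57 untreated and 0.83 and 0.53 under DEM. Its pairs did not overlap, and the difference of -0.88 ± 0.20 passed, though not without either untreated array or with spike-in scaling.

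Several genes were read by more than 1 probe on the same RNA samples. Of the 12 genes with at least 2 probes above background on 2 or more arrays, 10 had every such probe in the same direction, the exceptions being Plxna1 and Sema6c. Probes of a gene shared runs of at most 8 bases, except that 3 of the 4 Sema4a probes had identical sequences of 60 bases, as did 2 dim Nrp2 probes. No run of 20 or more bases was shared between probes of different family genes.

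**Figure D3:**
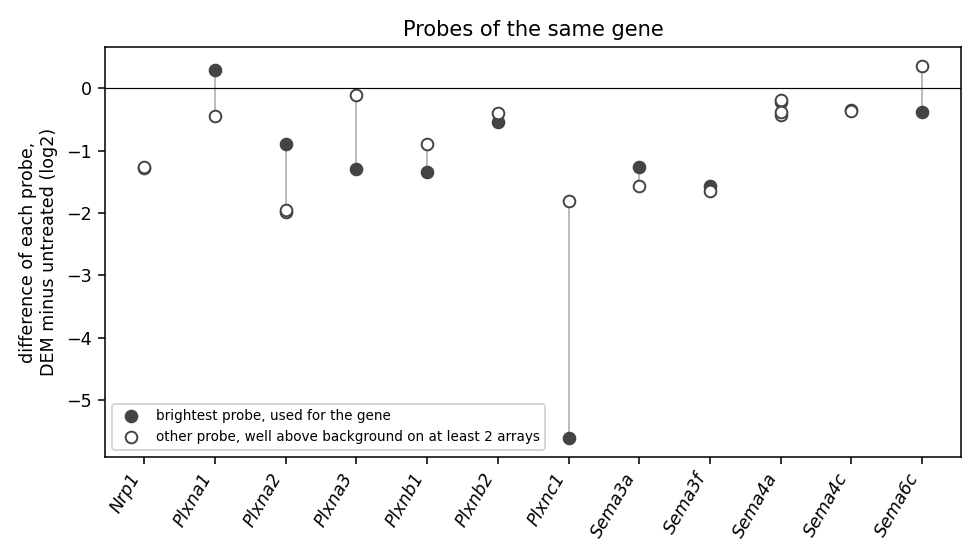
Difference of every probe, DEM minus untreated on the log2 scale, for the 12 genes with at least 2 probes well above background on 2 or more arrays; filled points are the brightest probe, which stands for the gene. Nrp1, Sema3f and Sema4c probes nearly coincide, Plxna1 and Sema6c probes straddle 0, and the Plxnc1 probes run from -5.61 to -1.80.

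Promoter sequences are shown for the gene that rose and for the 2 genes with the largest decreases that have an entry in the RefSeq promoter table (GRCm38.p6), which held 26 of the 31 genes. Each line gives the 250 bases before the start site, written 5′ to 3′ on the strand of the gene, with motif matches in capitals. They lie at chr9:57939862-57940111 (plus strand, Sema7a), chr10:94944846-94945095 (minus strand, Plxnc1) and chr15:32244563-32244812 (plus strand, Sema5a).
Sema7a: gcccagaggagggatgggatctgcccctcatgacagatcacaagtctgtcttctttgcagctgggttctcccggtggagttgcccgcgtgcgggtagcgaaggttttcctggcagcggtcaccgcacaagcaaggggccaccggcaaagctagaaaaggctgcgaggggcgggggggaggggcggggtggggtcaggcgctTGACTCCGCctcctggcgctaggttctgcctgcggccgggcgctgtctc
Plxnc1: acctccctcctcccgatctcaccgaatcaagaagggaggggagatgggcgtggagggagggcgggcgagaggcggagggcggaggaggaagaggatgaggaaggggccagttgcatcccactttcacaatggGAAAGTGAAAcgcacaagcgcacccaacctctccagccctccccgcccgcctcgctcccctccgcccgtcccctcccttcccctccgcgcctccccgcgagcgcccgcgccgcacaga
Sema5a: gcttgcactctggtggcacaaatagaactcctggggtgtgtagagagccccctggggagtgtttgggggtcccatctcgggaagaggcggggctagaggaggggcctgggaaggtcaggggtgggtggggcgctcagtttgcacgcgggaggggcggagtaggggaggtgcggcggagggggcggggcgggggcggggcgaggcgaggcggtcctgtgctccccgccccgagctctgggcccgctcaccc
The Sema7a capitals are a match to the core of the antioxidant response element, TGACNNNGC, from position -49. The Plxnc1 capitals match the core of the interferon-stimulated response element from position -118. Sema5a has no match in the bases printed, and a match to TGACNNNGC on the opposite strand lies 24 bases past its start site.

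Both strands of the 300 bases from 250 before to 50 after each start site were searched. TGACNNNGC was found for 6 of the 26 genes (23.1%), namely Plxnb3, Sema3g, Sema4a, Sema4d, Sema5a and Sema7a, against 14.0% of all 27025 genes in the table. These 6 include the gene that rose, 2 that were lower, 2 that did not pass and 1 that was not tested. The interferon-stimulated response element core was found for 2 genes (7.69%), Plxnc1 and Sema6b, against 3.99% of all genes. The AP-1 site TGANTCA was found for 3 (11.5%), Sema4c, Sema4d and Sema6b, against 8.97%, and TGANTCA and TGACNNNGC can overlap. Family windows were rich in G and C, with a median of 63.7% against 52.7% over all windows. Some genes had more than 1 window, which raises a share counted by gene. Counted over the 37 family windows, the share was 16.2% against 12.4% of all windows for TGACNNNGC. It was 5.41% against 3.44% for the interferon-stimulated response element core and 8.11% against 7.81% for the AP-1 site. A match describes the letters only, and no binding was measured.

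Partners of the family, from lists of genes known to act with semaphorins and plexins, were read in the same fit. Of 66 tested, 6 were higher, 13 lower and 47 did not pass, beside 15.5% higher and 11.8% lower over all genes tested and 16.7% each way over protein-coding genes. Their median difference was 0.03. Without untreated 1, 2 were higher and 5 lower, and without untreated 2, 2 and 4; without DEM 2, 13 were higher.

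Among 17 membrane partners tested, 3 rose and 6 fell. Nrcam, an L1-type adhesion molecule that forms a receptor complex with Nrp2, had levels of -2.13 and -2.43 untreated and 2.40 and 2.19 under DEM. It thus rose while Nrp2 was lower, by 4.57 ± 0.21 on the log2 scale (limma adjusted p = 0.000652), and it passed under every setting. Gpc1, a glypican heparan sulfate proteoglycan, rose by 1.85 ± 0.15 (limma adjusted p = 0.00142) and failed under spike-in scaling alone. Itga1 fell by 2.18 ± 0.38 (limma adjusted p = 0.0114) and Igsf8, an immunoglobulin superfamily protein that binds tetraspanins, fell by 1.71 ± 0.37 (adjusted p = 0.0214). Without untreated 1 and without untreated 2 neither passed, with adjusted p of 0.079 and 0.0795 for Itga1 and 0.0929 and 0.122 for Igsf8. Itga1 also failed when all its probes were averaged (-0.66), and Igsf8 with spike-in scaling (adjusted p = 0.144). Met, the kinase that joins B-type plexins, rose by 0.92 ± 0.22 (adjusted p = 0.0277), and Erbb2 differed by 0.09 ± 0.22 and did not pass.

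Most cytoplasmic partners did not pass. Of 38 tested, 2 rose, 5 fell and 31 did not pass, with a median of -0.01. Mical1, a plexin A-associated flavin monooxygenase that oxidizes actin, had levels of 5.03 and 5.02 untreated and 2.88 and 3.56 under DEM, and fell by 1.80 ± 0.25 (limma adjusted p = 0.00571). Fes, a tyrosine kinase that acts below Plxna1, fell by 1.34 ± 0.22 (limma adjusted p = 0.0101), Rnd2, a small GTPase that binds plexins, fell by 1.17 ± 0.23 (adjusted p = 0.0158), and Dpysl3, a collapsin response mediator protein, fell by 0.89 ± 0.20 (adjusted p = 0.0226). Without untreated 1 and without untreated 2 the adjusted p was 0.052 and 0.0995 for Fes, 0.0911 and 0.134 for Rnd2 and 0.13 and 0.129 for Dpysl3; these 3 and Mical1 also failed with spike-in scaling. Rac1, a GTPase at the end of these pathways, differed by 0.51 ± 0.19 and did not pass.

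Of the 5 VEGF ligands tested, which compete with or act beside semaphorins at neuropilins, 2 fell. Vegfc, the Nrp2 ligand that drives lymphatic vessels, had levels of 3.36 and 3.33 untreated and 1.35 and 0.87 under DEM, and fell by 2.24 ± 0.22 (limma adjusted p = 0.0023), and it passed under every setting. Vegfd fell by 1.05 ± 0.20 (adjusted p = 0.0152), a call lost when untreated 1 (adjusted p = 0.0543) or untreated 2 (adjusted p = 0.123) was left out, and with spike-in scaling. Vegfa differed by 1.14 ± 0.39 and did not pass (limma adjusted p = 0.0785). Of 6 proteases that cut semaphorins, plexins or neuropilins, Adam17, a sheddase, rose by 0.82 ± 0.18 (adjusted p = 0.0237), and the other 5 did not pass. The Adam17 call was lost when untreated 1 (adjusted p = 0.0874) or untreated 2 (adjusted p = 0.174) was left out, and with spike-in scaling.

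**Figure D4:**
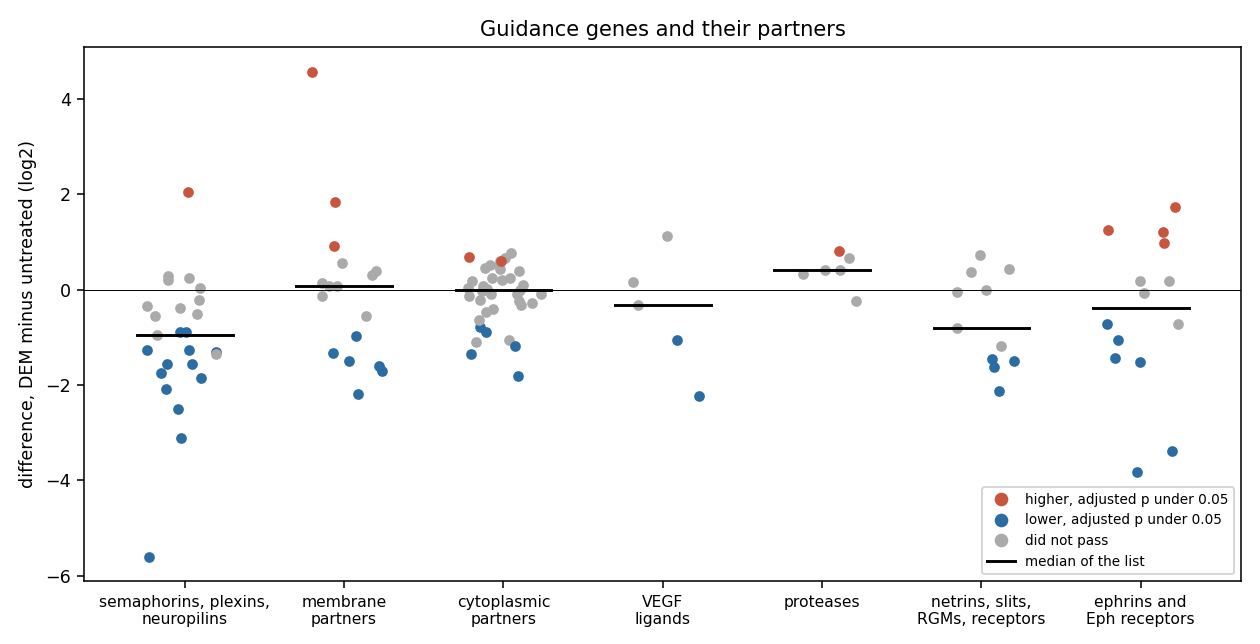
Differences, DEM minus untreated on the log2 scale, of each tested gene in the semaphorin, plexin and neuropilin family, in its partner lists and in the other guidance families; each point is 1 gene, coloured by whether it passed, and bars are list medians. The medians drawn are -0.96 for the family (-0.54 with its dim genes at their bounds, or 0 for Sema4g), 0.07 for membrane partners, -0.01 for cytoplasmic partners and -0.81 for netrin and slit genes; the family was selected on these values, so its median is not ranked against the others.

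Other axon guidance families were set beside the semaphorins. Of 25 genes tested, 4 rose and 10 fell, with a median of -0.71, beside 15.5% higher and 11.8% lower over all genes tested. Of 11 netrin, slit and repulsive guidance molecule genes with their receptors, 4 fell and 7 did not pass. The netrin receptor Unc5c fell by 2.12 ± 0.33 (limma adjusted p = 0.00848), Ntn3 by 1.62 ± 0.34 (adjusted p = 0.0205), Ntn4 by 1.51 ± 0.26 (adjusted p = 0.011) and Rgma by 1.46 ± 0.29 (adjusted p = 0.0159). Among 14 ephrins and Eph receptors, 4 rose and 6 fell. The receptors Epha7 (-3.82 ± 0.60, limma adjusted p = 0.00829), Ephb6 (-3.39 ± 0.24, adjusted p = 0.00112) and Epha4 (-1.52 ± 0.36, adjusted p = 0.0287) fell, and the ligand Efnb3 (1.74 ± 0.38, adjusted p = 0.0226) rose. Ephb6 passed under every setting. Epha7 and Ntn3 were well above background on only 1 DEM array each. With normexp background correction the differences were -2.10 for Epha7, -1.90 for Ephb6, -0.68 for Epha4, -0.55 for Ntn3 and -0.54 for Ntn4. Epha4 did not pass there. Unc5c (-1.61), Rgma (-1.45) and Efnb3 (1.38) changed less. The calls of Epha7, Epha4, Efnb3, Ntn3 and Ntn4 were lost both without untreated 1 (adjusted p from 0.0589 for Epha7 to 0.19 for Epha4) and without untreated 2 (from 0.0546 for Epha7 to 0.165 for Ntn3), that of Rgma without untreated 1 (adjusted p = 0.0711) and that of Unc5c without untreated 2 (adjusted p = 0.076). Without untreated 1, without untreated 2 and with spike-in scaling, 3 of the 25 guidance genes were lower in each case.

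Markers were read to check the cell type and what else the samples could hold. All 10 fibroblast markers were measured, and 6 of them fell, among them Col3a1 (-2.76 ± 0.20, limma adjusted p = 0.0011) and Pdgfrb (-1.81 ± 0.18, adjusted p = 0.00243). Lum, also among the 6, was not well above background on either DEM array (at least 1.49-fold lower). The other 4 did not pass: Col1a1 (-0.04), Thy1 (0.23), Vim (-0.28) and S100a4 (-0.54). The log2 of the summed level of all 10 was 10.60 and 10.65 untreated and 9.72 and 10.3 under DEM. Of 10 neuronal markers 2 were measured, Tubb3 and Map2, of which Map2 fell, and the 8 others, Rbfox3, Syt1 and Snap25 among them, were not above background on 2 arrays. For neurons the summed level was 2.12 and 1.85 untreated and 0.49 and 1.11 under DEM. Of 8 endothelial markers only Tek was measured, and it fell, with Pecam1 and Cdh5 not above background. Tek was not well above background on either DEM array (at least 1.23-fold lower). Of 7 macrophage markers 3 were measured and Lyz2 fell, while Adgre1 and Ptprc were not above background. The other measured ones, Cd14 (0.32) and Cd68 (0.27), had positive differences and did not pass. The macrophage sum was 2.04 and 2.29 untreated and 2.18 and 2.62 under DEM. Glial (3 of 6 measured) and epithelial (3 of 6) markers had none that passed. Of 7 skeletal muscle markers 3 were measured, Acta1, Des and Tnnt1. All fell, and their sum went from 2.74 and 3.00 to -0.68 and -0.64. Tnnt1 was not well above background on either DEM array. Myod1, Myog, Myf5 and Ckm were not above background on 2 arrays. In bulk RNA, fewer cells of a kind and less RNA per cell cannot be told apart, and the part of these markers in the family's values was not tested.

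All arrays were on 1 slide scanned on 1 day. The signal at the 75th percentile was 701 and 747 for untreated 1 and 2 and 449.9 and 412 for DEM 1 and 2, and 47.8% to 52.7% of spots were well above background. The correlation over all probes was 0.987 between untreated arrays, 0.984 between DEM arrays and 0.964 to 0.968 between the groups. Lower signal on the DEM arrays moved with the treatment, and its part in the decreases of dim family genes was not tested. The median gap between the 2 arrays of a group was 0.21 untreated and 0.19 under DEM over the tested family genes.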

How the data were processed

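Cy3-labelled RNA of 4 samples (2 untreated, 2 DEM, numbered as in the labels) was hybridised to 1-colour Agilent mouse arrays, 1 sample per array; how long DEM was applied is not stated in the labels. Spot intensity values were deposited by the authors and, per the file headers, come from Agilent Feature Extraction 10.7.3.1, whose processed signal was already background-subtracted. The authors' series table holds log2 values. At least 99.97% of its probes lay within 0.01 of the level defined below, up to a constant per array (column medians -4.40, -4.36, -4.30 and -4.36), which settles its scale and centring.

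Each array had 62976 spots. Control spots (1319) and 130 probes with outlier marks were left out, and no spot was saturated. A level is log2 processed signal less the array's 75th percentile; spots of a probe were averaged, and of 61177 probes the 31769 well above background (the software's mark) on at least 2 arrays were kept. The brightest probe, by mean level over all arrays, stood for a gene. Probe names were updated through RefSeq's gene table (GRCm38.p6), in which 28084 matched by accession, 4967 by symbol and 1412 by synonym, while 26714 kept the file's name; that table's coordinates are printed only with its own promoter sequences.

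Groups were compared with limma 3.58.1 (R 4.3.3, data.table package 1.17.8; plots by matplotlib 3.10.9) through lmFit and eBayes, with a trend on mean level (2 residual and 4.03 prior degrees of freedom), two-sided, Benjamini-Hochberg adjusted over all 24654 genes, threshold 0.05. The procedure was tested on simulated data. Where neither array of a group was well above background, only a bound is given (at least N-fold). It sets the bright group's mean against the dim group's, taking on each dim array the probe's own level or, if higher, the lowest level that counted as well above background. A probe can exceed that lowest level without being marked, as Efna2 did on DEM 2 (-4.06 against -4.16). A bound is therefore approximate, and it applies to the main processing only. Few arrays limit the precision.

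The family, the gene lists and the tests were chosen with earlier results of these data known. Genes of the family differing by at least 1 on the log2 scale are given array by array. Per partner list, up to 4 genes that passed with the largest difference are named. Met, Erbb2, Itgb1, Rac1, Vegfa and the neighbours of Sema3b and Sema3c were named beyond that rule, after their values were seen. Alternatives were other background correction, scaling, filters, probe averaging and variance models, the authors' values, a replicate block and each array left out.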

Additional observations from a re-analysis of the deposited data

How the results depend on the processing

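Of the 14 family genes that passed, 3 (Plxnc1, Sema3b and Sema5a) did so under every setting that gave a value. The number of the 25 with a negative difference was 20, and 18 with normexp and 21 with the percentile over detected probes, spike-in scaling, averaged probes or without DEM 2; of the 21 above background on all 4 arrays it was 16. The family's median of -0.96 was -0.35 with normexp, -1.23 after quantile normalization, -1.11 with the percentile over detected probes and -1.12 with spike-in scaling, and ran from -1.04 to -0.89 with 1 array left out. The median of all genes, 0.16, was 0.07 after quantile normalization, 0.00323 with the percentile over detected probes, 0.000846 with spike-in scaling and 0.47 with no filter on dim probes. Spike-in scaling gave 3 lower and 0 higher family genes, 889 and 363 of all genes, 2 and 1 partner genes and 3 and 0 other guidance genes by limma (1 family gene and 1 guidance gene were higher at an unadjusted p under 0.05); the spike-in level relative to the 75th percentile was 2.76 and 3.41 on the untreated and 2.79 and 3.70 on the DEM arrays, so it moved arrays of a group apart. Normexp gave 6468 higher genes. With no filter, which adds dim probes, 2 family genes (Sema7a and Sema4f), 17297 of all genes, 14 partners and 14 guidance genes were higher. Sema4f was not well above background on any array. Its processed signals before scaling were 5.07 and 5.46 untreated and 4.69 and 5.49 under DEM. Without the variance trend 3 partners were higher. Higher genes made up 56.8% of all that passed, and 70.0% with normexp, 46.6% after quantile normalization, 42.1% with the percentile over detected probes, 29% with spike-in scaling, 84.7% with no filter and 44.5% without untreated 2. With 1 array left out, the family had 3 to 15 lower and 1 higher genes, all genes 795 to 3814 lower and 637 to 4488 higher, partners 4 to 16 lower and 2 to 13 higher, and guidance genes 3 to 11 lower and 0 to 5 higher. Such a fit assumes that the lone array varies like the other group. Directions turned for Plxnb3 (0.0097) and Sema4b (0.042) with normexp, for Sema6b with the percentile over detected probes (-0.125), spike-in scaling (-0.127) and with 1 array left out (-0.48 to 0.55), and for Plxna1 with averaged probes (-0.077). The causes of these changes were not tested. Same-numbered arrays were not treated as pairs: with 2 pairs, their deviations correlated by 0.084 over all genes and 0.41 over the tested family genes. A replicate block gave 16 lower and 1 higher family genes, adding Plxnb1, Plxnb2 and Sema6d, and 3378 lower and 4472 higher of all genes. Signals near background limit what can be said of Plxnb3, Sema4b and Sema4g.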
